A study of Mus musculus with 6 samples.

Results

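The genes described here encode axon guidance molecules and adhesion molecules of the cadherin and contactin families, measured in the neocortex of mouse embryos that lack munc18-1 and of wild-type embryos. They were chosen by name. A probe belongs when its only gene symbol starts with Efna, Efnb, Epha, Ephb, Plxn, Robo, Unc5 or Pcdh, with Sema, Cdh, Cntn or Ntn and a digit, or is Slit1, Slit2, Slit3, Nrp1, Nrp2 or Dcc. This gave 64 genes on 67 of the series' 6856 probes. Each of 6 arrays compared the RNA of a munc18-1 null embryo with 1 pool of wild-type RNA from 6 animals, all neocortex of embryonic day 14 on the C57BL/6 background. The labels describe the mutants as synaptically silent, since munc18-1 protein is needed for the release of synaptic vesicles. The mutant RNA carried the dye cy3 on replicates 1 to 3 and cy5 on the rest, with the pool in the other dye, and these sets are called the cy3 and cy5 arrays here. The comparison asks which of these genes have a level that differs between the mutants and the pool. Synaptic activity was not tested apart from other effects of the mutation. Control RNA came from that pool alone, so the spread between wild-type animals is not measured. The labels call the mutants biological replicates and do not say which share a litter. Ratios give no level per gene, so the tissue could not be checked against defining markers.

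Growing axons steer by secreted and membrane-bound cues that bind receptors on the growth cone. Ephrins signal to Eph receptor tyrosine kinases by cell contact, and ephrin-B ligands also signal back into the cell that carries them. Semaphorins act through plexins, often with a neuropilin as co-receptor. Netrins attract axons through Dcc and repel them through Unc5, and Slits repel through Robo receptors. Cadherins hold cells together by binding their own kind in the presence of calcium, protocadherins give neurons surface identity, and contactins are immunoglobulin-type adhesion proteins of axons. In the embryonic cortex these families guide thalamic and callosal axons, set areal boundaries and keep radial glia joined at the ventricle.

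A deposited value is the log ratio of the channels of an array, read here with base 2. The sources used here do not state its direction, so the main estimates are given under both readings. Read as deposited, each array's positive values mean a higher level in the mutant. Read as turned, the values of replicates 1 to 3 change sign before averaging. The turned estimate is the mean over the cy5 arrays minus the mean over the cy3 arrays, divided by 2, so it is also what a dye effect would give, and the turned reading and a dye effect cannot be told apart. Both readings keep the sign of the cy5 arrays. That sign rests on the X-inactivation transcript Xist, and on the assumption that the pool held both sexes, so that a female lies above 0 and a male far below. Xist lay at 0.61, 0.71 and 0.31 on the cy3 arrays and at 0.24, -3.17 and -2.58 on the cy5 arrays. On that assumption the cy3 values lie where a female would as deposited, and turned they lie slightly below 0, where neither sex would. This is 1 gene and the makeup of the pool is not given in the sources used here, so both readings are kept. Xist was low on replicates 5 and 6 alone, so between replicates 1 and 2 and replicates 5 and 6 it differed together with the dye. Replicates 3 and 4 stood apart from the rest. Their ratios correlated at 0.59 over all 3875 shared probes although their dyes were opposite, and at -0.37 to -0.08 with the other arrays' ratios. The standard deviation was 1.09 and 0.62 on these arrays against 0.35 to 0.52 on the others. Estimates are therefore also given without replicates 3 and 4. The arrays then left were alike within a dye orientation more than across. Over all probes the correlation was 0.36 between replicates 1 and 2 and 0.21 between replicates 5 and 6. Across these pairs it was -0.074 to 0.055 over all probes and -0.10 to 0.24 over the members.

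No member differed between mutants and pool past the threshold under either reading. Values in both dye orientations sufficed for 52 member probes of 50 genes. In limma, 0 of these 52 had an adjusted p under 0.05, where the share over all 4958 probes fitted was 0%. The smallest adjusted p of a member was 0.921 as deposited and 0.972 turned. At an unadjusted p under 0.05 there was 1 member as deposited, Ntn1, which is 1.92% of the members against 1.77% of all probes. Turned, there were 4 members, Cdh17, Efnb1, Cntn1 and a probe of Cdh6, or 7.69% against 4.60% of all probes. The share as deposited is at the background. Without replicates 3 and 4 the adjusted counts were again 0 in limma, against 0.0212% of all probes as deposited and 0% turned, with smallest adjusted p of 0.300 and 0.147. Unadjusted there were 11 of 50 members as deposited (against 13.6% of all probes) and 18 turned (36.0%, against 23.4%). All arrays were also weighted by how closely each followed the fit. With these weights 0 members passed as deposited (against 0.0403% of all probes) or turned (against 0.625%). The smallest adjusted p in limma were 0.289 and 0.070, and the unadjusted counts were 11 (21.2%, against 12.1%) and 20 (38.5%, against 27.3%). At a looser adjusted p under 0.1 that weighted fit held 5 members turned, Cdh6 probe 6525, Cntn1, Cdh17, Slit3 and Sema6a, or 9.62% against 10.5% of all probes, a share near the background. With arrays centred and scaled to 1 width, the counts at an unadjusted p under 0.05 were 3 as deposited (5.77%, against 3.73%). Turned they were 12 (23.1%, against 11.5%).

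The members' values differed in sign with the dye of the mutant. In the first and second replicate their medians were -0.12 and -0.08, where all probes had 0.05 and 0.04. In replicates 5 and 6 the members' medians were 0.12 and 0.25, and those of all probes 0.04 and -0.0049. Replicates 3 and 4 gave -0.22 and 0.04 for members against -0.23 and -0.13. The share of members above the array's own median was 26.4% in replicate 1, 29.6% in replicate 2, 51.2% and 57.8% in the arrays that stood apart, and 64.9% and 80.7% in the last pair. As deposited, 32 of 52 estimates were above 0 (61.5%, against 43.3% of all probes) with a median of 0.03 against -0.03. Turned, 39 of 52 were above 0 (against 53.0% of all probes) with a median of 0.09 against 0.02. The signs without replicates 3 and 4 were positive for 36 of 50 as deposited (72.0%, against 62.6%) and for 39 of 50 turned (against 47.8%). Array weights gave 40 above 0 as deposited (against 58.6%) and 44 turned (against 47.2%), and scaled arrays 31 (against 50.4%) and 42 (against 52.0%). Under the turned reading the positive turned estimates stand for more RNA in the mutants. As deposited they stand for a difference between the cy5 and cy3 arrays, which differ in dye, in the embryos and in the Xist values given above, and the part of each was not tested.

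**Figure D1:**
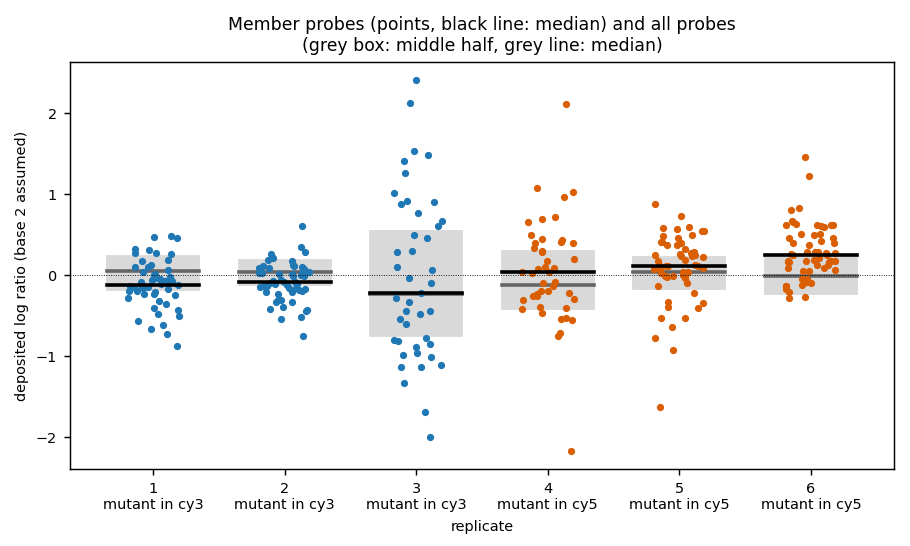
Deposited log ratio (base 2 assumed, vertical axis) of every member probe with a value, by replicate (horizontal axis), in blue with the mutant in cy3 and orange in cy5, with the members' median as a black line and the interquartile range and median of all probes as a grey box and line. The members' median lies below that of all probes on replicates 1 and 2 and above it on replicates 4, 5 and 6, and replicate 3 is the widest array.

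Among the ligands, the 3 ephrin-B genes showed the dye-linked pattern together. These membrane-spanning ligands mark boundaries and midline territories, and their genes were negative on replicates 1, 2 and 3 and positive on replicates 5 and 6. Efnb1 had values of -0.13, -0.18 and -0.60 on the cy3 arrays and 0.28, 0.87 and 0.25 on the cy5 arrays. All 3 cy3 values lay below all 3 cy5 values, and the estimates were 0.08 ± 0.14 (SE, n = 6) as deposited and 0.38 ± 0.14 (SE, n = 6) turned. The same quantities for Efnb3 were -0.15, -0.20 and -1.10 on the cy3 arrays and -0.42, 0.48 and 0.46 on the cy5 arrays. Replicates 5 and 6 stood alone above 0, with estimates of -0.16 ± 0.19 (SE, n = 6) as deposited and 0.33 ± 0.19 (SE, n = 6) turned, or 0.15 as deposited and 0.32 turned without replicates 3 and 4. Efnb2, given here after its values were seen, had -0.24, -0.09 and -0.48 on the cy3 arrays and -0.19, 0.41 and 0.28 on the cy5 arrays. Its estimates were -0.05 ± 0.13 (SE, n = 6) as deposited and 0.22 ± 0.13 (SE, n = 6) turned, and replicate 4 lay among the cy3 values. The turned median of the family was 0.33, against 0.02 for all probes.

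The ephrin-A ligands, which are anchored in the outer membrane leaflet and form gradients over the cortex, gave a less uniform picture, and only Efna1 matched the ephrin-B signs on replicates 1, 2, 5 and 6. It had -0.20, -0.17 and 1.26 on the cy3 arrays and 0.72, 0.28 and 0.29 on the cy5 arrays. Replicates 3 and 4 were highest, and the estimate as deposited, 0.36 ± 0.21 (SE, n = 6), was 0.05 without them, while the turned one went from 0.07 to 0.23. For Efna2 the values were 0.17, 0.13 and 0.91 on the cy3 arrays and 0.30, -0.33 and 0.12 on the cy5 arrays. Only replicate 5 was negative, and the estimates were 0.22 ± 0.16 (SE, n = 6) as deposited and -0.19 ± 0.16 (SE, n = 6) turned. Efna3 lay at 0.08 as deposited and -0.10 turned, and Efna5 had no value on any array. All 3 fitted ephrin-A genes were positive as deposited (against 43.3% of all probes) and 1 of 3 turned (against 53.0%).

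Sequence upstream of the annotated start is shown for 4 genes that share the sign pattern of the ephrin-B genes, 2 ligands, a receptor and a cadherin. They were chosen after their values were seen. Each line gives the 100 bases before the start in GRCm38.p6, from RefSeq, 5′ to 3′ on the gene's strand, with capitals marking the GC box GGGCGG.
Efnb1, chrX:99135961-99136060, plus strand: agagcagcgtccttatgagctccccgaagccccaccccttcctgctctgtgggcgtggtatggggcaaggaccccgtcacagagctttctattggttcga
Efnb2, chr8:8661243-8661342, minus strand: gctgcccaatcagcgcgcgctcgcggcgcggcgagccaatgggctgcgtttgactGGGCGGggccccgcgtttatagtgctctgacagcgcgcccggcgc
Nrp1, chr8:128358973-128359072, plus strand: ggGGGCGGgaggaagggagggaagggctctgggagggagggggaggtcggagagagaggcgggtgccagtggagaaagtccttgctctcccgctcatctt
Cdh6, chr15:13173676-13173775, minus strand: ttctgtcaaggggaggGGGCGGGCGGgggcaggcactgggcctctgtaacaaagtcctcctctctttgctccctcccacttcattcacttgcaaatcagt
Of these stretches, that of Efnb1 holds no GC box, those of Efnb2 and Nrp1 hold 1 and that of Cdh6 holds 2 that overlap. Windows of 300 bases around the start were matched for 46 member genes and searched on both strands. The GC box was in 30 of them (65.2%), against 38.2% of 27025 genes, and in 8 of the 12 matched genes with the sign pattern. The E box CACGTG was in 3 (6.52%, against 8.09%). The cAMP response element TGACGTCA, a target of activity-regulated factors, was in 0 of 46 (against 2.03%). The 27025 genes are all those with a window, whether or not they were on the arrays, so the shares compare unlike sets. No motif contains another, and a match is a description of letters. Efnb3 had no entry in the table.

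Eph receptors, the tyrosine kinases that ephrins bind, pointed in different directions gene by gene. Epha7, a receptor of the early cortical plate, had -0.16, -0.01 and -0.81 on the cy3 arrays and 0.65, -0.01 and 0.62 on the cy5 arrays. Replicates 4 and 6 were high and replicate 3 low, with estimates of 0.05 ± 0.16 (SE, n = 6) as deposited and 0.37 ± 0.16 (SE, n = 6) turned. Epha4, which binds ephrins of both classes, had 0.46, 0.09 and 0.67 on the cy3 arrays and -0.09, -0.93 and 0.42 on the cy5 arrays. Its cy3 values were all positive and replicate 5 was lowest, so that it had the most negative turned estimate of the members, -0.31 ± 0.19 (SE, n = 6), against 0.10 ± 0.19 (SE, n = 6) as deposited. Epha5 was positive on replicates 1, 2, 5 and 6 and negative on 3 and 4. Its estimate as deposited was 0.05 ± 0.21 (SE, n = 6) and 0.39 ± 0.08 (SE, n = 4) without those arrays. Epha3 went likewise from 0.04 to 0.34. Epha6, given after its values were seen, went the other way. It had -0.87, -0.76 and 1.41 on the cy3 arrays and 2.12, -1.63 and -0.27 on the cy5 arrays. Replicates 3 and 4 alone were positive, and its estimate as deposited was -0.0017 with them and -0.88 without. For Epha8 the estimate went from -0.29 to 0.08. Of the 6 fitted EphA genes, 3 were above 0 turned (against 53.0% of all probes), and 2 without replicates 3 and 4 (against 47.8%).

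EphB receptors were covered by 2 fitted genes. Ephb4, the partner of ephrin-B2 best known in vessels, has 2 probes whose signs differed only on replicate 4 of the shared arrays. Probe 1218 had 0.49 and 0.22 on the cy3 arrays and 0.50, 0.13 and 0.17 on the cy5 arrays, without a value on replicate 3. It was positive on all 5 arrays with a value, at 0.31 ± 0.14 (SE, n = 5) as deposited, or 0.25 without replicates 3 and 4. Probe 3568 had 0.10, 0.03 and -0.44 on the cy3 arrays and -0.47, 0.32 and 0.05 on the cy5 arrays. Here replicates 3 and 4 were negative, and the estimate was -0.07 ± 0.15 (SE, n = 6) as deposited, or 0.12 without those arrays. The probes differed by 0.12 to 0.97 on the 5 arrays they share and had the same sign on 4. Ephb6, a receptor without kinase activity, had 0.27, 0.18 and 0.46 on the cy3 arrays and 0.34, -0.41 and 0.18 on the cy5 arrays. Replicate 5 was the only negative array, and the estimates were 0.17 ± 0.14 (SE, n = 6) as deposited and -0.13 ± 0.14 (SE, n = 6) turned. Of the 3 fitted EphB probes, 1 was above 0 turned (against 53.0% of all probes), and 1 without replicates 3 and 4 (against 47.8%). No Eph receptor of either class was negative on all cy3 arrays and positive on all cy5 arrays.

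Semaphorins, the largest ligand family here with 6 fitted genes, were positive under the turned reading in all 6, with a median of 0.20. Over all probes 53.0% were positive turned, with a median of 0.02. Each semaphorin was also positive turned without replicates 3 and 4 (against 47.8% of all probes). Sema5b, a transmembrane repellent, had -0.02, -0.20 and -2.0 on the cy3 arrays and -0.20, 0.50 and 0.29 on the cy5 arrays. Replicate 3 was far below the others, and the estimates were -0.27 ± 0.27 (SE, n = 6) as deposited and 0.47 ± 0.27 (SE, n = 6) turned, or 0.14 as deposited and 0.26 turned without replicates 3 and 4. Sema6b had -0.17 and -0.33 on the cy3 arrays and 0.19 and 0.37 on the cy5 arrays, without a value on replicates 3 and 4. Its cy3 and cy5 values did not overlap, at 0.27 ± 0.15 (SE, n = 4) turned and 0.01 as deposited. Sema6c, given after its values were seen, had -0.19, -0.12 and -0.81 on the cy3 arrays and -0.30, 0.25 and 0.17 on the cy5 arrays. Sema6a was below 0 on replicates 1, 2 and 5 and above it on the others, with 0.02 as deposited and -0.27 without replicates 3 and 4. Sema4b lay between -0.09 and 0.11 on 5 arrays and at 0.96 on replicate 4. Sema5a was positive on all arrays but replicates 3 and 4.

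Plexins, the signalling receptors for semaphorins, and the co-receptor neuropilin 1 had their lowest values on replicate 3 in all but Plxna2 and Plxnc1, which has no value there. Plxna3 had -0.14, 0.01 and -0.78 on the cy3 arrays and -0.26, 0.55 and 0.40 on the cy5 arrays. Replicates 5 and 6 were highest, and the estimates were -0.03 ± 0.16 (SE, n = 6) as deposited and 0.26 ± 0.16 (SE, n = 6) turned, or 0.21 as deposited and 0.27 turned without replicates 3 and 4. Plxna1 had 0.02, -0.09 and -1.14 on the cy3 arrays and -0.54, 0.04 and 0.06 on the cy5 arrays. It was near 0 on all arrays but replicates 3 and 4, and its estimate was -0.27 ± 0.19 (SE, n = 6) as deposited and 0.01 without them. The 5 fitted plexins were all positive turned, from 0.01 to 0.26 (against 53.0% of all probes above 0). Plxna2 and Plxnb3 were 0.09 and -0.17 as deposited, and Plxnc1 was 0.08. Nrp1, the receptor shared by secreted semaphorins and vascular growth factor, had -0.20, -0.10 and -0.84 on the cy3 arrays and -0.24, 0.25 and 0.17 on the cy5 arrays. Only replicates 5 and 6 were positive, with estimates of -0.16 ± 0.15 (SE, n = 6) as deposited and 0.22 ± 0.15 (SE, n = 6) turned. Nrp1 and Sema6c differed by at most 0.07 on any array. Such likeness was common, since 26.3% of 3763 probes with 6 values had another probe within 0.1 on every array.

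Netrins gave the member with the smallest p as deposited. Ntn1, the midline attractant that draws commissural and thalamic axons, had 0.19 and 0.61 on the cy3 arrays and 0.38 and 0.61 on the cy5 arrays, without a value on replicates 3 and 4. All 4 values were positive and the orientations overlapped, at 0.45 ± 0.16 (SE, n = 4) as deposited (limma adjusted p = 0.921) and 0.05 turned. The missing arrays are the 2 that stood apart, so no value of Ntn1 comes from them. Ntn3 showed the opposite arrangement, with -0.32 and -0.14 on the cy3 arrays and 0.22 and 0.40 on the cy5 arrays, without a value on replicates 3 and 4. Its orientations did not overlap, giving 0.04 as deposited and 0.27 ± 0.15 (SE, n = 4) turned. Ntn4, which also lies in basement membranes, was -0.03 as deposited and 0.14 turned. Dcc, the receptor for attraction by netrin, had -0.05, 0.02 and -1.01 on the cy3 arrays and 0.17, 0.40 and 0.51 on the cy5 arrays. Replicate 3 was far below the others, and without replicates 3 and 4 the estimate as deposited went from 0.01 to 0.22 and the turned one from 0.35 to 0.23. Unc5c, a receptor for repulsion, had no value.

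Slit ligands and their receptor Robo1 differed among themselves. Slit2, a midline repellent, had -0.04, -0.07 and 2.13 on the cy3 arrays and 1.02, -0.39 and 0.13 on the cy5 arrays. Replicates 3 and 4 were above 1 and the other arrays at or below 0.13, and the estimate of 0.46 ± 0.33 (SE, n = 6) as deposited was -0.10 without them. Slit1 had -0.72 and 0.10 on the cy3 arrays and 0.69, -0.02 and -0.14 on the cy5 arrays, without a value on replicate 3. Replicates 1 and 4 lay at opposite ends, with -0.07 as deposited and 0.25 turned. Slit3 was negative on replicates 1 and 2 and positive on the other 4 arrays, at 0.03 as deposited and 0.15 turned. Robo1, the receptor that Slits bind, had -0.29, -0.15 and 0.29 on the cy3 arrays and -0.53, 0.24 and 0.51 on the cy5 arrays. Replicate 4 was lowest although its dyes matched those of replicates 5 and 6, which were highest with replicate 3, and the estimates were 0.01 ± 0.17 (SE, n = 6) as deposited and 0.06 ± 0.17 (SE, n = 6) turned, or 0.08 as deposited and 0.30 turned without replicates 3 and 4.

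**Figure D2:**
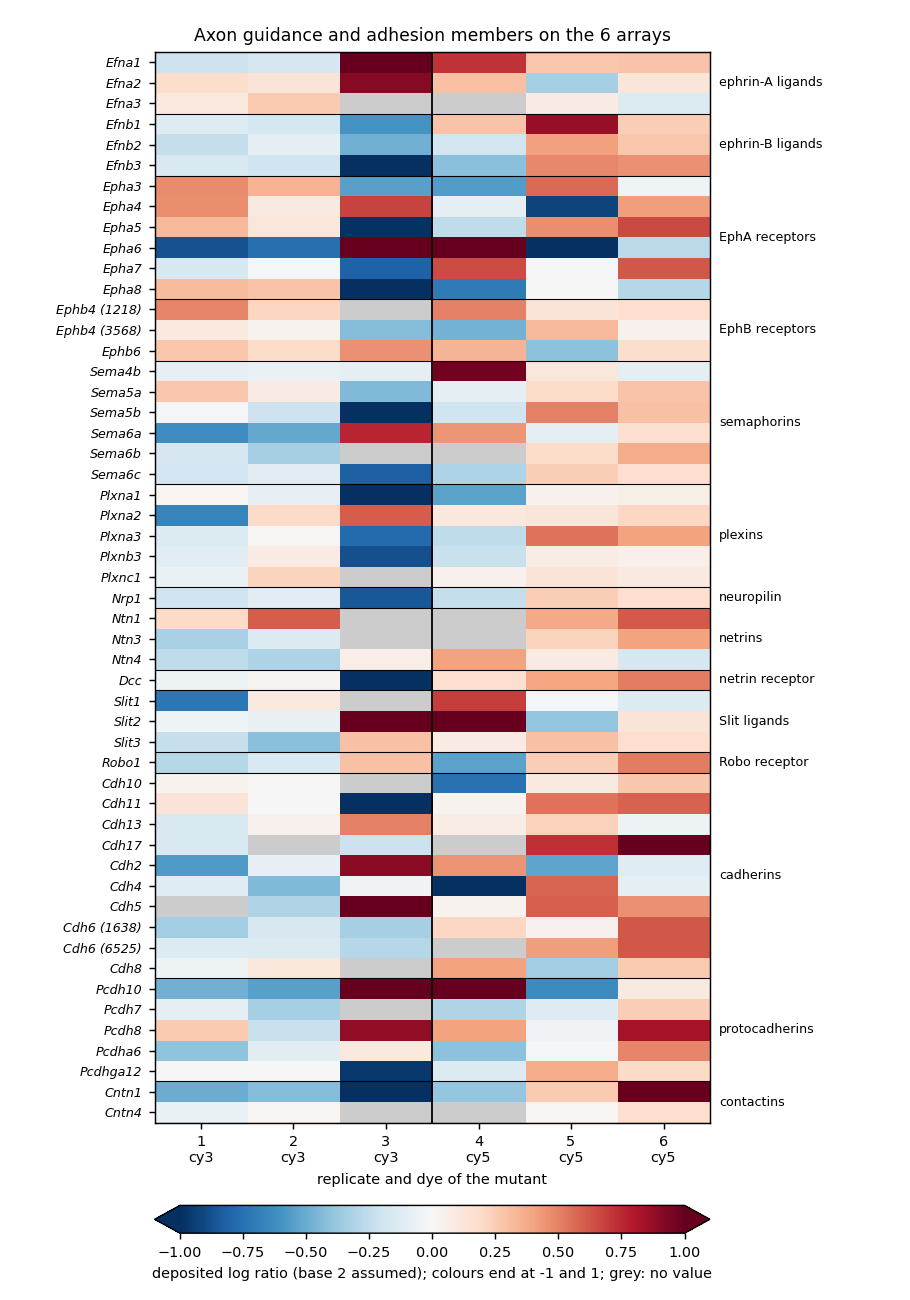
Deposited log ratio (base 2 assumed, colour, ending at -1 and 1) of the 52 fitted member probes (rows, by family) on replicates 1 to 6 (columns, cy3 or cy5 for the mutant), with grey where there is no value. Replicates 3 and 4 share their sign in 30 of the 39 rows with both values, and the ephrin-B rows are blue on replicates 1 and 2 and red on 5 and 6.

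Cadherins, the calcium-dependent adhesion molecules, held a member whose 2 probes gave like values. Cdh6, a cadherin of cortical areas and early forebrain boundaries, was measured by both. Probe 1638 had -0.35, -0.16 and -0.33 on the cy3 arrays and 0.20, 0.04 and 0.62 on the cy5 arrays, and probe 6525 had -0.14, -0.14 and -0.28 on the cy3 arrays and 0.42 and 0.62 on the cy5 arrays, without a value on replicate 4. On both probes every cy3 value was negative and every cy5 value positive, and the probes differed by a median of 0.05 and at most 0.38 on the 5 shared arrays. As deposited the estimates were 0.0032 ± 0.12 (SE, n = 6) and 0.16 ± 0.13 (SE, n = 5). Turned they were 0.28 ± 0.12 (SE, n = 6) and 0.35 ± 0.13 (SE, n = 5) (limma adjusted p = 0.972 for both). Without replicates 3 and 4 the turned values were 0.29 and 0.33. Cdh17, a cadherin of the gut and liver, had -0.15 and -0.22 on the cy3 arrays and 0.73 and 1.45 on the cy5 arrays, without a value on replicates 2 and 4. Its cy5 values were both far above its cy3 values, and it had the largest turned estimate of the members, 0.64 ± 0.19 (SE, n = 4), against 0.45 ± 0.19 (SE, n = 4) as deposited.

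Several other cadherins had other estimates without replicates 3 and 4. Cdh11, of mesenchyme and cortex, lay at -1.69 on replicate 3 and above 0 on the other 5 arrays, so that its estimate as deposited was -0.06 with those arrays and 0.32 ± 0.07 (SE, n = 4) without. Cdh2, the N-cadherin of the neuroepithelium, was positive only on replicates 3 and 4, at 0.90 and 0.45, and went from 0.01 to -0.32 ± 0.12 (SE, n = 4). Cdh4, or R-cadherin, lay at -2.17 on replicate 4 and went from -0.38 to -0.02. Cdh5, the cadherin of vessel walls, lay at 1.54 on replicate 3 and had the highest estimate as deposited, 0.49 ± 0.28 (SE, n = 5), with too few values for a fit without replicates 3 and 4. Cdh8, Cdh10 and Cdh13 lay between -0.05 and 0.11 as deposited and between -0.08 and 0.04 turned. Over the 10 fitted probes, 7 were positive as deposited (against 43.3% of all probes) and 5 turned (against 53.0%).

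Protocadherins and contactins gave 7 fitted genes, all positive turned (against 53.0% of all probes), though some lay close to 0. Pcdh8, a protocadherin that responds to activity in mature neurons, had 0.27, -0.23 and 0.88 on the cy3 arrays and 0.40, -0.04 and 0.83 on the cy5 arrays. Replicates 2 and 5 were negative and the rest positive, with 0.35 ± 0.18 (SE, n = 6) as deposited and 0.05 turned. Pcdh10 was highest on replicates 3 and 4, at 1.01 and 1.08, and went from 0.09 as deposited to -0.39 ± 0.14 (SE, n = 4) without them. Pcdh7 had values for 1 of its 2 probes, -0.09 and -0.33 on the cy3 arrays and -0.30, -0.13 and 0.25 on the cy5 arrays, without a value on replicate 3. Replicate 6 was the only positive array, with -0.13 as deposited. Pcdhga12 had 0.0016, -0.01 and -0.96 on the cy3 arrays and -0.14, 0.37 and 0.19 on the cy5 arrays, and Pcdha6 lay at -0.06 as deposited. Members of these clusters share exons, so these probes may also read their neighbours. Pcdhga12 lay near 0 on replicates 1 and 2 and low on replicate 3, with -0.09 ± 0.17 (SE, n = 6) as deposited and 0.23 ± 0.17 (SE, n = 6) turned. Cntn1, the contactin of growing axons, had -0.50, -0.43 and -1.14 on the cy3 arrays and -0.39, 0.26 and 1.22 on the cy5 arrays. Replicates 5 and 6 alone were positive, and the estimates were -0.16 ± 0.22 (SE, n = 6) as deposited and 0.53 ± 0.22 (SE, n = 6) turned, or 0.14 as deposited and 0.60 turned without replicates 3 and 4. Cntn4 was 0.04 as deposited and 0.06 turned, from -0.07 and 0.02 on the cy3 arrays and 0.02 and 0.17 on the cy5 arrays, without a value on replicates 3 and 4, values that lie close to 0.

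**Figure D3:**
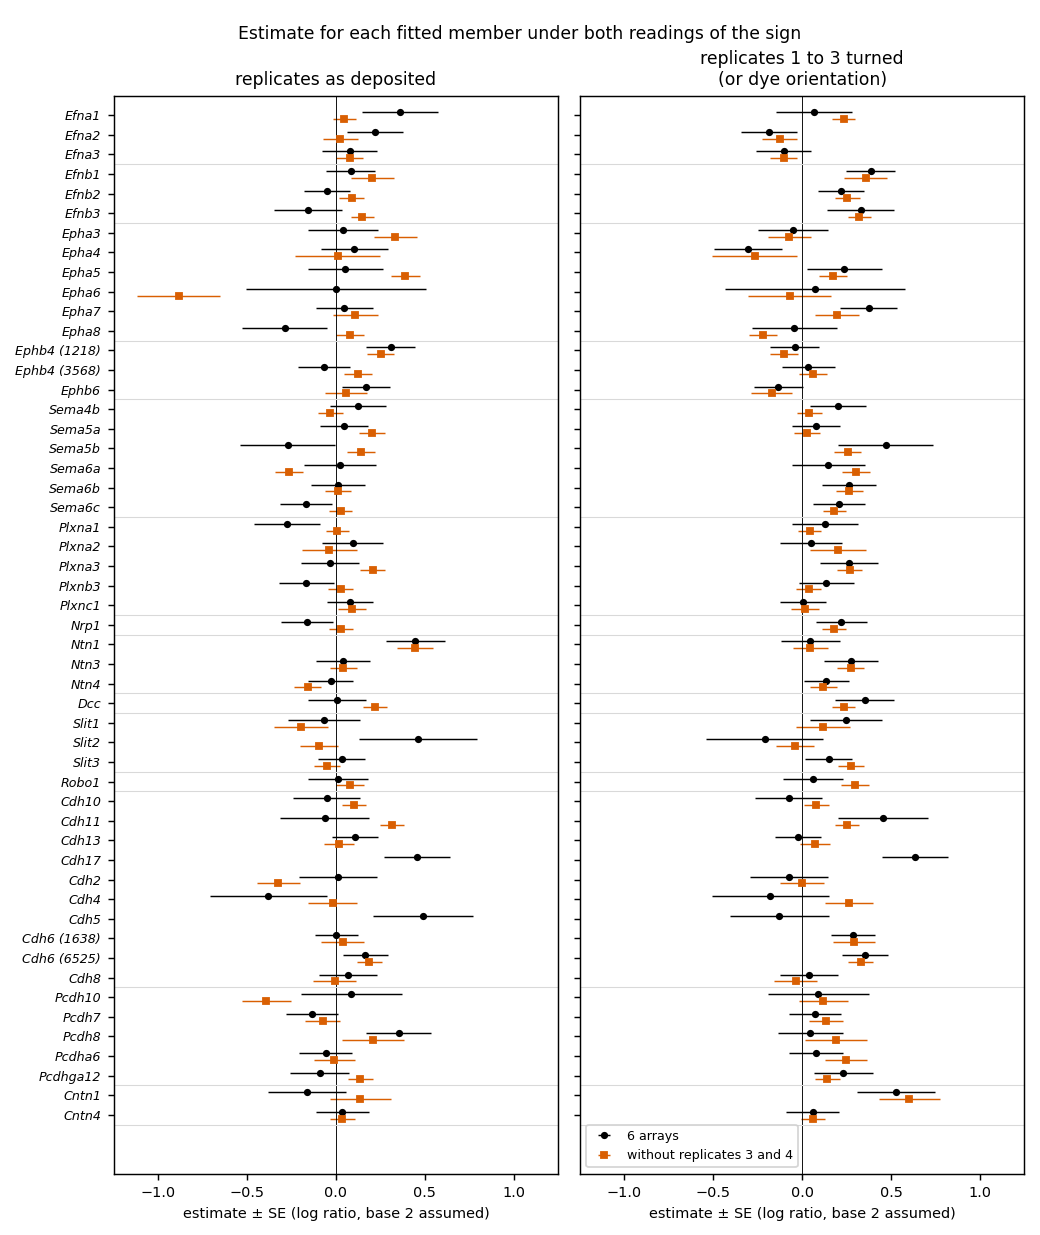
Estimate ± SE (log ratio, base 2 assumed, horizontal axis) for each fitted member (rows) as deposited on the left and turned on the right, from 6 arrays in black and without replicates 3 and 4 in orange. On the left Cdh5, Slit2, Cdh17 and Ntn1 lie highest with 6 arrays, and Epha6 moves to -0.88 without replicates 3 and 4. On the right 39 of 52 black points lie above 0.

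The sign pattern was counted over the whole table. With every array, 6 of 52 members were negative on all cy3 and positive on all cy5 arrays with a value (11.5%, against 3.89% of all probes), namely both Cdh6 probes, Cdh17, Efnb1, Ntn3 and Sema6b. A missing value did not count against a probe, in the members or in all probes. Only Cdh6 probe 1638 and Efnb1 had all 6 values. Cdh6 probe 6525 had none on replicate 4, Cdh17 none on replicates 2 and 4, and Ntn3 and Sema6b none on replicates 3 and 4. The reverse pattern was found in 0 members, against 3.01% of all probes. Ntn1 and Ephb4 probe 1218 were positive on all arrays with a value (2 members or 3.85%, against 1.90%). These were 4 arrays for Ntn1 and 5 for the Ephb4 probe. Negative on all arrays with a value were 0 members, against 0.827%. On replicates 1, 2, 5 and 6 alone, 14 of 50 members with all 4 values showed the first pattern (28.0%, against 12.6%) and 0 the reverse (against 16.9%). Positive on all 4 were 7 members (14.0%, against 11.7%) and negative on all 4 were Cdh2 and Epha6 (4.00%, against 5.46%). Of the 14, 9 were ligands, 2 receptors and 3 adhesion probes, for 13 genes in all. They were Efna1, Efnb1, Efnb2, Efnb3, Ntn3, Sema5b, Sema6b, Sema6c and Slit3 among ligands, Nrp1 and Robo1 among receptors, and Cdh6 and Cntn1. Their turned estimates without replicates 3 and 4 ran from 0.18 to 0.60, with limma adjusted p between 0.147 and 0.232. These values come from the 4 arrays whose signs picked the probes. Their sign was thus fixed in advance, and the p-values are no test of the pattern. With every array the turned estimates of the 14 ran from 0.06 to 0.53, with limma adjusted p between 0.972 and 0.985. Replicate 3, also in cy3, was negative in 9 of 12 of the probes, while replicate 4, also in cy5, was positive in 4 of 11.

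**Figure D4:**
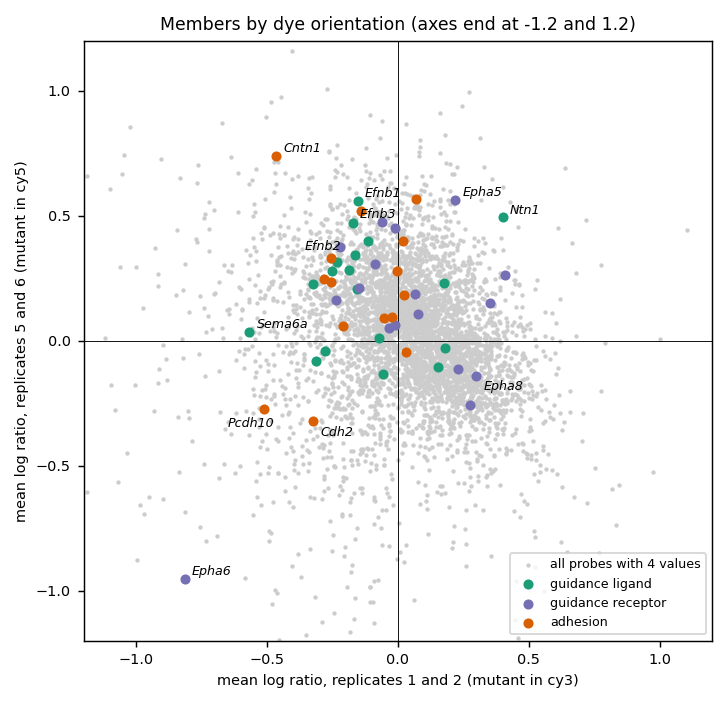
Mean log ratio (base 2 assumed) of replicates 5 and 6, with the mutant in cy5 (vertical axis), against that of replicates 1 and 2, in cy3 (horizontal axis), for members coloured by role and for all probes within the axes in grey. Members gather in the upper left, where the ephrin-B genes and Cntn1 lie, while Ntn1 and Epha5 lie in the upper right and Epha6 in the lower left.

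Genes of the same pathways outside the members were described from 3 lists, and 0 of their genes passed in limma under either reading. Of 57 listed genes of intracellular guidance signalling, 36 were fitted on 38 probes, with 9 above 0 as deposited and 26 turned, and medians of -0.08 and 0.12. Those with the smallest p were Vav2, an exchange factor downstream of Eph receptors, at -0.21 as deposited and 0.33 turned, Crmp1, a mediator of semaphorin signals, at -0.17 as deposited and 0.35 turned, and the kinase gene Abl2 at -0.04 as deposited and 0.40 turned. Catenins and junction partners gave 19 fitted genes of 28, with 8 above 0 as deposited and 16 turned, and medians of -0.02 and 0.21. Vcl, the actin linker vinculin, stood at 0.51 as deposited and 0.24 turned, Tjp1, a tight junction scaffold, at -0.33 as deposited and 0.53 turned, and Ctnnd1, the catenin that stabilises cadherins, at -0.06 as deposited and 0.32 turned. Other guidance receptors and neural adhesion genes gave 15 fitted of 36 on 19 probes, with 10 above 0 as deposited and 15 turned, and medians of 0.02 and 0.15. Neo1, the netrin receptor related to Dcc, stood at 0.09 as deposited and 0.49 turned, Mcam at -0.12 as deposited and 0.48 turned and L1cam, an adhesion protein of axon bundles, at -0.01 as deposited and 0.31 turned. Over all probes 43.3% were above 0 as deposited and 53.0% turned. Without replicates 3 and 4 the counts above 0 in the order of these lists were 26 of 38, 13 of 19 and 14 of 19 as deposited (against 62.6%) and 22, 16 and 16 turned (against 47.8%). The median of the signalling list as deposited was then 0.04 and that of the catenin list 0.10, both above 0.

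Markers of the cell types that the tissue could hold were read on the same arrays. On replicates 1 to 6 in turn, the medians were -0.40, -0.07, -0.57, -0.09, 0.15 and 0.23 for vessels and meninges (10 probes), a list that shares Cdh5 with the members. They were 0.03, -0.13, -0.09, 0.11, 0.29 and 0.14 for erythroid cells (5 probes) and -0.01, 0.24, -0.92, -0.18, 0.05 and -0.13 for postmitotic neurons (9 probes). Radial glia and progenitors (12 probes) had 0.17, 0.17, -0.50, -0.07, 0.03 and 0.004, interneurons and ganglionic eminence (10 probes) -0.47, -0.02, 0.38, -0.09, -0.31 and 0.08, and choroid plexus and hem (6 probes) 0.18, 0.08, 0.13, 0.15, 0.26 and 0.0006. Turned, 7 of 10 vessel and meninges probes, 5 of 5 erythroid probes and 7 of 9 postmitotic neuron probes were above 0. Without replicates 3 and 4 these counts were 6 of 8, 5 of 5 and 3 of 9. Over all probes the turned shares above 0 were 53.0% with every array and 47.8% without replicates 3 and 4. Turned estimates were above 0 for 6 of 12 progenitor probes, 3 of 10 interneuron probes and 3 of 6 choroid plexus probes. Without replicates 3 and 4 those counts were 6 of 12, 2 of 7 and 2 of 5. As deposited, all 9 postmitotic neuron probes lay below 0, and 6 of 9 above it without replicates 3 and 4. Above 0 as deposited were 2 of 10 vessel and meninges, 2 of 5 erythroid and 6 of 12 progenitor probes. For interneurons they were 3 of 10 and for choroid plexus 4 of 6, against 43.3% of all probes. Without replicates 3 and 4 these lists, in that order, had 3 of 8, 4 of 5, 10 of 12, 1 of 7 and 5 of 5 (against 62.6%). In all 6 lists 0 markers passed in limma under either reading, and at an unadjusted p under 0.05 there were 3 as deposited and 2 turned. Over all probes that limit held 1.77% as deposited and 4.60% turned. Fewer cells of a type and less RNA per cell cannot be told apart in tissue RNA, and the part of these markers in the members' ratios was not tested.

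The other 15 member probes had too few values for a fit. Without a value on any array were 8 probes, of Cdh3, Cdh15, Cdh18, Cntn6, Efna5, Epha1, Unc5c and the second of Pcdh7. The remaining 7 had values on 1 to 3 arrays. Cdh9 lay at -0.53 in replicate 5 and 0.80 in replicate 6. Cdh16 had -0.21, -0.22 and 0.67 in replicates 2, 5 and 6, and Ephb3 had -0.39, -0.009 and 0.64 there. Each of these 3 was lower on replicate 5 than on replicate 6. Pcdh12, a protocadherin of vessels, lay at -0.13 in replicate 2 and 2.41 in replicate 3. Cdh20 had 1.49, -0.78 and 0.62 in replicates 3, 5 and 6. Cdh1 had 0.06, 0.12 and -0.20 in replicates 1, 5 and 6, and Cntn3 had -0.43 in replicate 1 only. These values give no estimate.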

How the data were processed

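RNA of 6 munc18-1 null embryos was hybridised against 1 wild-type pool on 2-colour arrays. The values are the authors' deposited log ratios of each array, read as log2, whose base and direction are not stated. How the arrays were scanned, corrected for background and normalized is not given in the sources used here. Gene names came from the platform annotation, in which 6269 of 6856 probes have 1 symbol, 6 several and 581 none. All 67 member probes matched RefSeq by gene ID. Depth has no counterpart on arrays, and precision is limited by their number.

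The fit took the 4958 probes that had 2 or more values for both orientations of the dyes. It was made in limma 3.58.1 (R 4.3.3) with a mean and a dye orientation term over 6 arrays. The mean is the estimate as deposited and the dye term the turned estimate. P-values were adjusted by Benjamini-Hochberg over these probes, with a threshold of 0.05. The fit was tested on simulated data. Mutant against pool is tested against 0, which leaves out the spread of the wild-type animals.

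The members and the pathway and marker lists were chosen with earlier results of these data known. Values on every array are given for members with 1 sign, or opposite signs by dye, on all arrays with a value. They are also given for the 2 per family with the smallest p and for both probes of a gene. The same holds for members said to be chosen after their values were seen. Alternatives were the other direction, no dye term, centring, scaling, array weights, robust moderation, complete probes, averaged probes, a looser threshold and leaving out arrays. The targeted gene is not analysed here.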

Additional observations from a re-analysis of the deposited data

Results flagged for a closer look

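By Dixon's criterion, 1 array lay far from the others of the same probe in 8 of 52 member probes with 4 or more values. Chance marks about 1 in 20 where every array has the same spread. Replicates 3 and 4 were the widest arrays, so any set of probes could exceed that rate. Probes outside the members were not tested in this way, so the count has no background and is not shown to be particular to these genes. Replicate 3 was the distant array in 4 of the 8 member probes. Cdh11 lay at -1.69 there against 0.0063 to 0.59 on the others, Sema5b at -2.0 against -0.20 to 0.50, Dcc at -1.01 against -0.05 to 0.51 and Plxnb3 at -0.88 against -0.22 to 0.09. Replicate 4 was distant in 3. Cdh4 lay at -2.17 there against -0.44 to 0.58, Cdh10 at -0.75 against 0.01 to 0.27 and Sema4b at 0.96 against -0.09 to 0.11. Replicate 5 was distant for Ephb6, at -0.41 against 0.18 to 0.46.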

How the results depend on the processing

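The count of members past the adjusted threshold was 0 under both readings in every alternative run in limma at an adjusted p under 0.05. At an adjusted p under 0.1, tried with each alternative after seeing the data, it was 0 except for 5 turned with array weights. The unadjusted count as deposited, 1 with 6 arrays, was 4 turned, 2 with median-centred arrays, 3 with centred and scaled arrays, 11 with array weights, 11 without replicates 3 and 4 and 0 of 38 complete probes. Leaving out 1 replicate gave 0 to 2. The count above 0 as deposited, 32 of 52, was 21 of 38 complete probes, and 20 to 34 leaving out 1 replicate, where 40 to 52 members could be fitted. The median as deposited was 0.03 and ran from -0.0068 to 0.04 leaving out 1 replicate. The turned unadjusted count, 4, was 7 with centring, 12 with scaling, 20 with array weights, 18 without replicates 3 and 4 and 2 of complete probes, and 1 to 6 leaving out 1 replicate. The turned median was 0.09 and 0.10 to 0.14 leaving out 1 replicate. The causes were not tested. Without replicates 3 and 4, 9 of 27 members with values on every array given by rule had another sign as deposited and 0 of 27 turned. The rule picks members partly by opposite signs on the cy3 and cy5 arrays, and their turned sign could not change. Members without a value on replicates 3 and 4, such as Ntn1 and Cntn4, could not change under either reading. The 0 is therefore no measure of how stable the turned reading is. The base and direction of the ratios are not stated (the Xist values bear on the direction only through an assumption on the pool), and signal over background is not given in the sources used here. No paired analysis was possible because all mutants were compared with the same pool.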
